A study of Mus musculus with 4 samples.

Results

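The genes described here are the RNA editing enzymes of the ADAR family, the receptors that detect double-stranded RNA in the cytosol or the endosome, the adaptor through which the cytosolic helicase receptors signal, and a transporter that brings double-stranded RNA to them. The 10 genes were chosen by name and mapped by Ensembl identifier among the 55573 gene identifiers of each library, and all 10 were found. They are Adar and Adarb1 (editing), Ifih1, Ddx58 and Dhx58 (RIG-I-like receptors), Mavs (adaptor), Eif2ak2 and Zbp1 (sensors that act outside the Mavs route), and Sidt2 and Tlr3 (endolysosomal transport and sensing). Their levels were measured by RNA sequencing of B cells sorted as Fr.C+C′ from the bone marrow of C57BL/6 mice aged 8 to 12 weeks. In the Hardy scheme of B cell development this gate takes cells at the passage of the pro-B to the pre-B stage. There were 2 libraries from mice labelled ADAR1 KO (KO 1 and KO 2) and 2 from wild type mice (WT 1 and WT 2). The labels name no allele, no Cre line and no deleted exon, and nothing in them ties a library to a mouse, so p-values here reflect only how far these libraries differ, and that difference may be technical.

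ADAR1, the product of Adar, turns adenosine into inosine within RNA duplexes, which loosens the duplex and keeps the cell's own transcripts from being read as foreign. Unedited duplexes can be bound by MDA5 (from Ifih1), which signals through MAVS to induce type I interferon, and they can also activate PKR and ZBP1, which halt translation and start cell death. Several of these genes, among them Ifih1, Ddx58, Dhx58, Eif2ak2, Zbp1 and the long form of Adar, are themselves induced by interferon. Mutations that remove ADAR1 in mice are known for an interferon response that depends on MDA5 and MAVS.

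RefSeq promoter windows on GRCm38.p6, each running from 250 bases before to 50 bases after a transcription start, were at hand for 8 of the 10 genes, in 10 windows, of which 3 belonged to Adar. Zbp1 and Dhx58 had no entry. The windows were searched on both strands for the letters GAAANNGAAA, the core of the interferon-stimulated response element bound by the interferon-activated factor ISGF3. The letters were found once each in the windows of Ddx58, Eif2ak2 and Ifih1, against 3.44% of all 32851 windows and 3.99% of 27025 genes. These 3 stretches are shown because they are the sensor genes whose windows hold the letters, with the matching bases in capitals and the gene's own strand read 5′ to 3′. For Ddx58 and Eif2ak2 the stretch runs from 250 bases before to 30 bases after the start, and for Ifih1 only the 30 bases at the match are given.
Ddx58, chr4:40239796-40240075, minus strand: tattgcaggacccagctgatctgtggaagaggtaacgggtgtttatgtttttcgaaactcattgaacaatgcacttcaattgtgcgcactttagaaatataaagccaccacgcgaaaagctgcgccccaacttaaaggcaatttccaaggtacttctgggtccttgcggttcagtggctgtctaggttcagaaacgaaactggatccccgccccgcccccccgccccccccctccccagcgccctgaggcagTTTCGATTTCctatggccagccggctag
Eif2ak2, chr17:78882543-78882822, minus strand: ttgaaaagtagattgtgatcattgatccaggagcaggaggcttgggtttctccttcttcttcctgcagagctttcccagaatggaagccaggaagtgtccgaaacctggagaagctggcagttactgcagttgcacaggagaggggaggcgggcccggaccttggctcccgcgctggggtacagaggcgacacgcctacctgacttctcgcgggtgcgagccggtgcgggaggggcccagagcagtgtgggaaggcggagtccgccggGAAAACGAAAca
Ifih1, chr2:62646206-62646235, minus strand: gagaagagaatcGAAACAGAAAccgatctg
The match began at base 3 after the start in Ddx58, at base 19 in Eif2ak2 and at base 33 in Ifih1. In Ddx58 it lay on the opposite strand, so that it reads TTTCGATTTC. No window of Adar, Adarb1, Mavs, Sidt2 or Tlr3 held these letters. Only exact matches were counted, so a window without the letters may still hold a variant of the element. Similar letters with 1 base between the GAAA copies were not counted. Such letters stand in 1 Adar window (gaaacgaaagtgaac) and, unmarked, in the Ddx58 stretch (gaaacgaaac). The gamma-activated site TTCNNNGAA, which is its own reverse complement, was found in 1 Adar window and in that of Eif2ak2, against 8.30% of all windows.

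Values are FPKM, fragments scaled to the exon length of the gene and to the depth of the library. The values fit a length that joins all annotated exons of a gene. A gene expressed as a shorter transcript then reads too low, so levels of different genes can be compared per length only roughly. Depth, recovered from the steps of the low values, was about 15860695 and 15138277 fragments in KO 1 and KO 2 and 15806243 and 16436976 in WT 1 and WT 2, and between 12575 and 12892 genes reached 1 FPKM in a library. The sorted cells carried the defining B-lineage transcripts, with Vpreb3 at 327.99 and 174.59 FPKM in KO 1 and KO 2 and at 349.27 and 353.56 FPKM in WT 1 and WT 2. Vpreb3 is 1 of 15 such markers, and these differed. Cd79a was at 193.59 and 96.80 FPKM in the KO libraries against 436.24 and 435.96 FPKM in the WT libraries. For Vpreb1 the groups overlapped, at 260.89 and 155.96 FPKM against 213.23 and 180.25 FPKM. The sorted cells also held transcripts of other marrow cells, most of all of neutrophils. The summed level of 15 neutrophil markers was 36400 and 74200 FPKM in KO 1 and KO 2, against 27800 and 25900 FPKM in WT 1 and WT 2. That of 15 B-lineage markers was 2400 and 1460 FPKM in the KO libraries, against 2870 and 2920 FPKM in the WT libraries. KO 2 thus stood apart from the other 3 libraries in both lists. KO 1 differed from WT too, as 14 of the 15 neutrophil markers lay above both WT libraries in both KO libraries. Of all genes in the test described below, 19.7% did. The median difference of these markers from the WT mean (log2 scale) was 0.47 in KO 1 and 1.49 in KO 2. Of the 15 B-lineage markers, 6 lay below both WT libraries in both KO libraries, against 31.7% of all genes tested. Gene by gene, the log2 difference between KO 1 and KO 2 had an SD of 0.487, and that between WT 1 and WT 2 an SD of 0.322. In bulk RNA, fewer cells of a type and less RNA per cell cannot be told apart. Each result below is therefore given for each library.

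**Figure D1:**
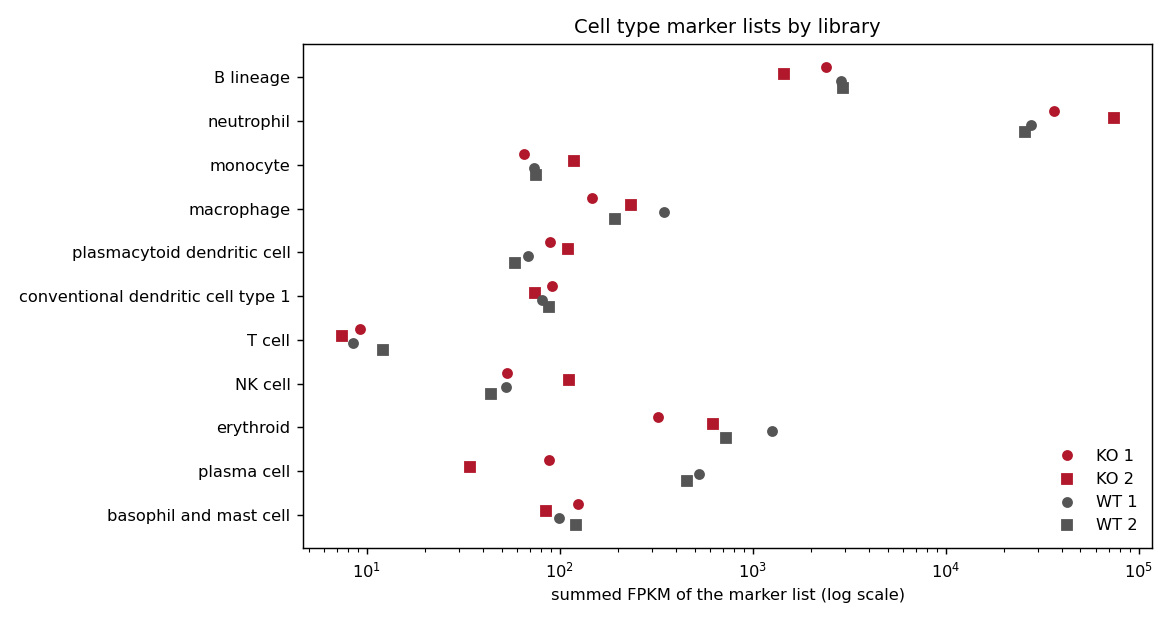
Summed FPKM (log scale) of the marker list of each cell type, 1 point per library, KO in red and WT in grey. KO 2 had the highest neutrophil sum, at 74200 FPKM, and the lowest B-lineage sum, at 1460 FPKM.

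The test between groups was limma on log2(FPKM + 1) across the 13281 genes whose KO or WT mean reached 1 FPKM, with p-values adjusted by the Benjamini-Hochberg method over all of them and a threshold of 0.05. A log2 change is KO minus WT on that scale, with its standard error from the model. Of all genes tested, 27 (0.203%) passed, and 0 of the 8 sensing and editing genes tested did in limma or in voom on estimated fragments. At an unadjusted p under 0.05 there were 2 of the 8, Ddx58 and Zbp1, against 12.5% of all genes. The 8 were above 1 FPKM in both groups, so none entered the test through 1 group alone, while Adarb1 and Tlr3 lay below the filter and were not tested. With 2 libraries against 2, an exact permutation test of a single gene cannot go below p = 0.333, so none was run.

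In 5 of the 8 (Adar, Ddx58, Dhx58, Zbp1 and Sidt2) both KO libraries lay above both WT libraries, against 19.7% of all genes tested. For 0 of the 8 were both KO libraries below both WT libraries, against 31.7%. The log2 change was above 0 for 7 of the 8, against 38.3% of all genes, and its median over the 8 was 0.36, against -0.09 over all genes. In KO 2 alone, 7 of the 8 were above both WT libraries (29.4% of all genes were), and in KO 1 alone 6 of the 8 were (37.5%). The median difference from the WT mean (log2 scale) was 0.14 for KO 1 and 0.55 for KO 2, against -0.01 and -0.17 over all genes. The excess over the WT level was thus larger in KO 2, the library with the most neutrophil transcripts, and the part of those transcripts in it was not tested.

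**Figure D2:**
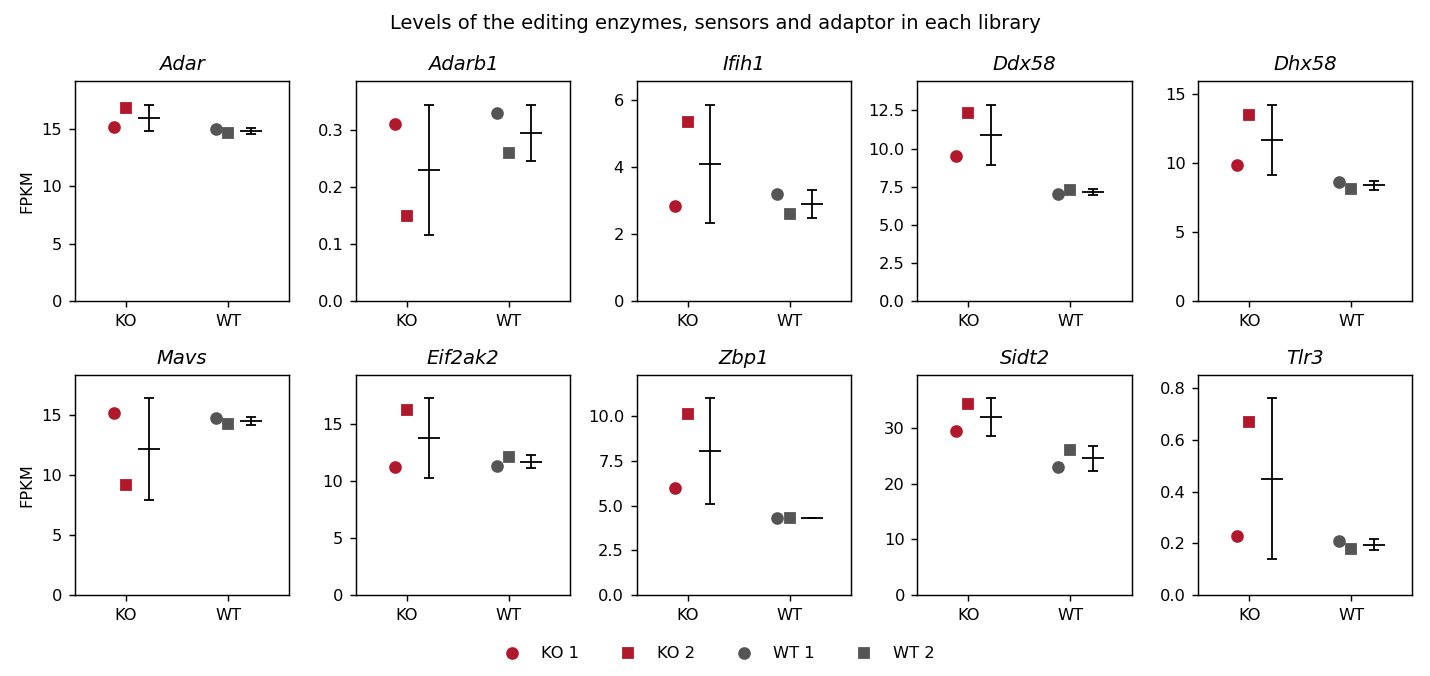
Level in FPKM of each of the 10 genes by library, KO (red) left of WT (grey), circles for replicate 1 and squares for replicate 2, with the mean and SD of the 2 libraries as a bar. Ddx58, Dhx58, Zbp1 and Sidt2 stand higher in both KO libraries than in both WT libraries, Mavs is low in KO 2 alone, and Adar lies between 14.62 and 16.79 FPKM throughout.

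Adar is the targeted gene and was examined first. It lies on chromosome 3, 89715022 to 89753446 on the plus strand (GRCm38, GENCODE M21), with 9 annotated transcripts, 5 of them coding, that start from separate promoters and encode the interferon-inducible long form and the constitutive short form of the enzyme. Adar was at 15.19 and 16.79 FPKM in KO 1 and KO 2, against 15.04 and 14.62 FPKM in WT 1 and WT 2. The KO libraries lay above the WT libraries, KO 1 by a narrow margin. The means were 15.99 ± 1.13 FPKM in KO and 14.8 ± 0.297 FPKM in WT (SD, n = 2 each), with a log2 change of 0.10 ± 0.14 (95% interval -0.25 to 0.45, adjusted p = 0.721, limma). Between 1930 and 2063 fragments per library stood behind these values, so depth was not what limited them. A value over all exons says nothing of a deletion of part of them and is no check of the KO label, and the transcript level of the gene as a whole was not detectably lower in the libraries labelled KO. The end of Adar overlaps Chrnb2, a nicotinic receptor subunit gene on the opposite strand, over 1365 bases or 16.8% of its exon length. No source used here says whether counting used strand, so reads in that stretch cannot be told apart, and Chrnb2 was itself listed at 0.88 and 0.77 FPKM in the KO libraries against 0.50 and 0.48 FPKM in the WT libraries.

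Adarb1 encodes ADAR2, the paralogue best known for editing neuronal receptor transcripts. Its level was low, at 0.31 and 0.15 FPKM in KO 1 and KO 2, against 0.33 and 0.26 FPKM in WT 1 and WT 2. Adarb1 lies on chromosome 10, 77290726 to 77418270 on the minus strand. Its values rest on 55 and 26 fragments in the KO libraries and on 59 and 48 in the WT libraries, and the groups overlap. Adar stood 49.0 and 112 times above Adarb1 in KO 1 and KO 2, and 45.6 and 56.2 times above it in WT 1 and WT 2. Of 6 related genes, Adarb2 and Adad2 were listed at 0 in every library and Adad1 did not exceed 0.02 FPKM. Adat3, the partner subunit of Adat2, was at 0.73 and 0.52 FPKM in the KO libraries against 1 and 0.67 FPKM in the WT libraries. The tRNA adenosine deaminase genes Adat1 and Adat2 were expressed at low levels. Adat2, the catalytic subunit for the wobble position, was at 4.26 and 3.83 FPKM in the KO libraries against 4.01 and 4.07 FPKM in the WT libraries. Adat1 was at 1.97 and 1.47 FPKM against 1.91 and 1.62 FPKM. No other adenosine deaminase of this list thus came near the level of Adar in either group.

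None of the 3 RIG-I-like receptor genes passed the test. Ddx58 encodes RIG-I, the receptor for short duplexes with a 5′ triphosphate. It was at 9.49 and 12.30 FPKM in KO 1 and KO 2, against 7 and 7.30 FPKM in WT 1 and WT 2. Both KO libraries lay above both WT libraries, by a margin wider than the gap between the WT libraries. The means were 10.9 ± 1.99 and 7.15 ± 0.212 FPKM (SD, n = 2 each), a ratio of 1.52, and the log2 change of 0.54 ± 0.17 (95% interval 0.10 to 0.97) had an unadjusted p of 0.0250 and did not pass when adjusted over all genes (adjusted p = 0.370, limma). A larger log2 change was found for 8.20% of the genes tested. Ddx58 lies on chromosome 4, 40203773 to 40239828 on the minus strand.

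Dhx58 encodes LGP2, which has the helicase but lacks the signalling domains of the other receptors and tunes MDA5 and RIG-I. It was at 9.88 and 13.48 FPKM in KO 1 and KO 2, against 8.63 and 8.15 FPKM in WT 1 and WT 2. The groups did not overlap, but KO 1 lay nearer to WT 1 than to KO 2. Its log2 change was 0.42 ± 0.19 (adjusted p = 0.437, limma), with means of 11.7 ± 2.55 FPKM in KO and 8.39 ± 0.339 FPKM in WT (SD, n = 2 each). Dhx58 lies on chromosome 11, 100694884 to 100704271, and Ifih1 on chromosome 2, 62595798 to 62646255, both on the minus strand.

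Ifih1, which encodes MDA5, the receptor of long duplexes, was the lowest of the 3 receptor genes in every library. It was at 2.85 and 5.35 FPKM in KO 1 and KO 2, against 3.19 and 2.60 FPKM in WT 1 and WT 2. KO 1 lay between the WT libraries and only KO 2 stood above them, so the log2 change of 0.35 ± 0.28 (95% interval -0.37 to 1.06, adjusted p = 0.576, limma) became -0.01 without KO 2. Between 349 and 661 fragments per library stood behind these values. Ddx58 exceeded Ifih1 by a factor of 3.33 and 2.30 in KO 1 and KO 2 and of 2.19 and 2.81 in WT 1 and WT 2, ranges that overlap.

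Mavs, the mitochondrial adaptor that receives the signal of RIG-I and MDA5, was the single gene of the 8 with a negative log2 change, and that sign came from KO 2. It was at 15.17 and 9.17 FPKM in KO 1 and KO 2, against 14.78 and 14.26 FPKM in WT 1 and WT 2. KO 1 lay above both WT libraries and KO 2 below both. The log2 change was -0.28 ± 0.25 (95% interval -0.91 to 0.36, adjusted p = 0.613, limma), was 0.06 without KO 2, and was 0.27 when libraries were scaled to B-lineage genes, a scaling that lifted the median of all genes by 0.54 to 0.45. Since Ddx58 was high and Mavs low in KO 2, the ratio of Ddx58 to Mavs was 0.626 in KO 1 and 1.34 in KO 2, against 0.474 and 0.512 in WT 1 and WT 2. Both KO ratios lay above both WT ratios. The ratio of Dhx58 to Ifih1 overlapped, at 3.47 and 2.52 in the KO libraries against 2.71 and 3.13 in the WT libraries. How often the ratio of a gene pair parts the groups was not counted.

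**Figure D3:**
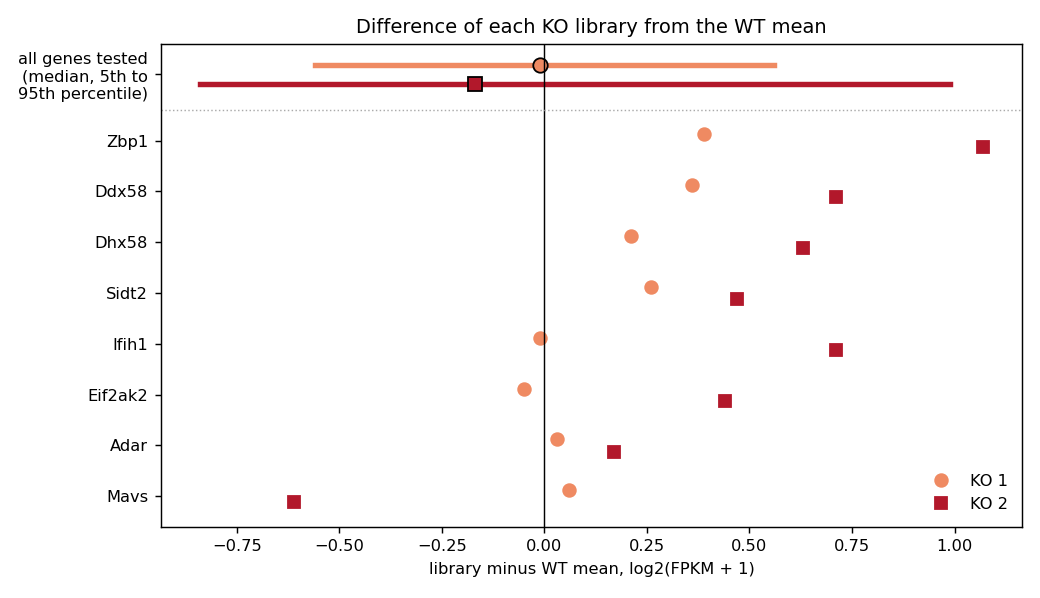
Difference of KO 1 (circles) and of KO 2 (squares) from the WT mean on the log2(FPKM + 1) scale for the 8 genes tested, with the median and the 5th to 95th percentile of all 13281 genes tested on top. KO 2 lies farther from 0 than KO 1 for every one of the 8 genes. Zbp1 in KO 2, at 1.07, is the single value outside the 5th to 95th percentile of all genes in its library. The 95th percentile for KO 2 was 0.99.

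Eif2ak2 encodes PKR, the kinase that phosphorylates eIF2alpha on binding double-stranded RNA. It was at 11.25 and 16.20 FPKM in KO 1 and KO 2, against 11.32 and 12.07 FPKM in WT 1 and WT 2. As for Ifih1, KO 2 alone stood above the WT libraries, and KO 1 lay just below them. The log2 change was 0.19 ± 0.20 (adjusted p = 0.652, limma), and -0.05 without KO 2. Eif2ak2 lies on chromosome 17, 78852564 to 78882573 on the minus strand, and Mavs on chromosome 2, 131234063 to 131248025 on the plus strand.

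Zbp1, whose product detects RNA or DNA in the Z form and binds the kinase RIPK3 to start necroptosis, had the largest ratio between groups of the 8 genes tested. It was at 5.97 and 10.12 FPKM in KO 1 and KO 2, against 4.32 and 4.30 FPKM in WT 1 and WT 2. The WT libraries were nearly equal, and both KO libraries lay above them, KO 2 by far the more. The means were 8.04 ± 2.93 and 4.31 ± 0.0141 FPKM (SD, n = 2 each), a ratio of 1.87. Its log2 change of 0.73 ± 0.25 (95% interval 0.09 to 1.37) had an unadjusted p of 0.0331 and an adjusted p of 0.376 (limma), and 4.59% of genes tested had a larger one. Without KO 1 the log2 change was 1.07 and passed (adjusted p = 0.0460), in a setting in which 7.1% of all genes did and 1 of these 8. Without KO 2 it was 0.39 (adjusted p = 0.325). The product of Adar also binds Z-form RNA through its long form, and the level of Adar over that of Zbp1 was 2.54 and 1.66 in KO 1 and KO 2, against 3.48 and 3.40 in WT 1 and WT 2. Both KO ratios were thus below both WT ratios. The ratio of Adar to Eif2ak2 overlapped, at 1.35 and 1.04 in the KO libraries against 1.33 and 1.21 in the WT libraries. That of Adar to Ifih1 overlapped too, at 5.33 and 3.14 against 4.71 and 5.62. The share of all gene pairs whose ratio parts the groups was not counted. Zbp1 lies on chromosome 2, 173206612 to 173218923 on the minus strand.

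Sidt2, a lysosomal membrane protein that passes internalised double-stranded RNA towards the cytosol, was the most abundant of the 10 genes per length. It was at 29.50 and 34.28 FPKM in KO 1 and KO 2, against 22.97 and 26.03 FPKM in WT 1 and WT 2. The groups did not overlap, and WT 2 was the nearest to the KO libraries. The log2 change was 0.37 ± 0.16 (95% interval -0.03 to 0.76, adjusted p = 0.427, limma), with means of 31.9 ± 3.38 and 24.5 ± 2.16 FPKM (SD, n = 2 each). An antisense gene of unknown role, A830035O19Rik, covers 10.4% of the exons of Sidt2 and stood at 0.47 and 0.52 FPKM in the KO libraries against 0.27 and 0.26 FPKM in the WT libraries. Opposite-strand genes also cover 4.31% of the exons of Dhx58 (Dhx58os), 3.40% of those of Eif2ak2 (Gm26637) and 7.32% of those of Tlr3 (Gm45542, listed at 0). Sidt2 lies on chromosome 9, 45937857 to 45955258, and Tlr3 on chromosome 8, 45395665 to 45411080, both on the minus strand.

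Tlr3, the endosomal receptor of double-stranded RNA, was below the filter. It was at 0.23 and 0.67 FPKM in KO 1 and KO 2, against 0.21 and 0.18 FPKM in WT 1 and WT 2. KO 1 was close to the WT libraries, at 19 fragments against 17 and 15, and KO 2 held 53 fragments. In mice Tlr3 marks conventional dendritic cells of type 1 and some macrophages. Xcr1, which defines those dendritic cells, was at 0.10 and 0.56 FPKM in the KO libraries against 0.16 and 0.11 FPKM in the WT libraries, and Clec9a at 2.61 and 5.42 FPKM against 3.06 and 2.20 FPKM. Both were highest in KO 2, as Tlr3 was, and so were Naaa and Cadm1 of the same list of 6 markers. Xcr1 rested on 7 and 38 fragments in KO 1 and KO 2 and on 11 and 8 in WT 1 and WT 2. Only 3 of the 6 markers passed the filter. The share of all genes that were highest in KO 2 was not counted. KO 2 was above both WT libraries for 29.4% of all genes tested. Naaa reached 12.05 FPKM in KO 2, with 5.16 in KO 1, 6.67 in WT 1 and 4.55 in WT 2. Cadm1 reached 0.82 FPKM in KO 2, with 0.7 in WT 1 as the next highest. The remaining markers differed, with Itgae highest in WT 2 (0.51 FPKM) and Wdfy4 lowest in KO 2 (54.67 FPKM). Most of the list's sum came from Wdfy4, so the sum says little of the other markers. It was 91 and 73.9 FPKM in the KO libraries against 81 and 88.2 FPKM in the WT libraries. The sum of the macrophage markers was not highest in KO 2. Over 10 genes it was 146 and 234 FPKM in the KO libraries against 347 and 194 FPKM in the WT libraries. The part of either cell type in the Tlr3 values was not tested.

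By level the order in the KO libraries, from the mean of the 2, was Sidt2, Adar, Eif2ak2, Mavs, Dhx58, Ddx58, Zbp1, Ifih1, Tlr3 and Adarb1. In the WT libraries it was Sidt2, Adar, Mavs, Eif2ak2, Dhx58, Ddx58, Zbp1, Ifih1, Adarb1 and Tlr3. Of the 9 neighbouring pairs, the ranges of the 2 libraries overlapped for 6 in KO and for 1 in WT. The overlapping WT pair was Adar and Mavs. In KO each of the genes from Adar down to Zbp1 overlapped the next one in the order, as Tlr3 overlapped Adarb1. Sidt2 was the highest and Adar the second highest in each of the 4 libraries.

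Genes that work with these sensors were described from 9 lists of 91 genes, 76 of which were tested. None of the 76 passed in limma or in voom, 3 had an unadjusted p under 0.05 (3.95%, against 12.5% of all genes), 15 (19.7%) lay above both WT libraries in both KO libraries, against 19.7% of all genes, and 22 (28.9%) below both, against 31.7%. Their median log2 change was -0.03, against -0.09 over all genes. In the shares above and below and in the median they were thus close to all genes, while a smaller share had an unadjusted p under 0.05 (limma). Lists are taken in the order of the pathway, and the 3 genes with the smallest p are given for each.

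Among 16 cofactors of the RIG-I-like receptors 3 lay above both WT libraries and 9 below both (all genes 19.7% and 31.7%), with a median log2 change of -0.16 (all genes -0.09), which was -0.06 without KO 2 and -0.27 without KO 1. Ddx60, a helicase that is itself induced by interferon, was at 2.51 and 6.21 FPKM in the KO libraries against 1.83 and 1.98 FPKM in the WT libraries (log2 change 0.79 ± 0.36, adjusted p = 0.441, limma). Prkra, which encodes the PKR activator PACT, was at 8.16 and 8.90 FPKM against 7.15 and 6.22 FPKM. Ddx1, an RNA helicase, was at 21.23 and 18.00 FPKM against 26.75 and 24.70 FPKM. Trim25, the ubiquitin ligase linked to RIG-I activation, was chosen after its values were seen, and stood at 34.13 and 33.10 FPKM in the KO libraries against 32.50 and 32.65 FPKM in the WT libraries. For Trim25, as for Ddx58, both KO libraries thus lay above both WT libraries. The log2 change was 0.04 for Trim25 and 0.54 for Ddx58, and the difference between these genes was not tested.

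Downstream of Mavs, 15 signalling genes had a median log2 change of 0.17, with 6 above both WT libraries and 0 below both (all genes 19.7% and 31.7%). The median was 0.09 without KO 2 and 0.03 without WT 2. Irf7, the factor that amplifies interferon production, was at 19.01 and 33.48 FPKM in the KO libraries against 15.49 and 12.05 FPKM in the WT libraries (log2 change 0.84 ± 0.30, adjusted p = 0.381, limma). Tbkbp1, an adaptor of the kinase TBK1, was at 8.81 and 16.65 FPKM against 6.88 and 5.67 FPKM (log2 change 0.86 ± 0.31, adjusted p = 0.383, limma). Ikbke, the inducible kinase of this step, was at 5.24 and 10.09 FPKM against 5.08 and 4.29 FPKM. In each of these 3 the KO libraries lay above the WT libraries, and KO 2 was the higher of the KO libraries. Plasmacytoid dendritic cells express Irf7 at high levels. All 6 of their markers were above both WT libraries in both KO libraries, against 19.7% of all genes tested. Their sum was 89.2 and 110 FPKM in KO 1 and KO 2 against 68.3 and 58.8 FPKM in WT 1 and WT 2. Siglech, their defining surface receptor, was at 30.72 and 40.25 FPKM in the KO libraries against 25.55 and 23.46 FPKM in the WT libraries. The part of these cells in the Irf7 values was not tested.

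Of 11 inhibitors of the Mavs route the median log2 change was 0.05, with 3 above both WT libraries and 2 below both (all genes 19.7% and 31.7%). The median was -0.04 without KO 2, -0.02 without WT 1 and 0.08 without KO 1. Nlrx1, a mitochondrial protein reported to restrain MAVS, was at 7.20 and 9.35 FPKM in the KO libraries against 4.26 and 4.03 FPKM in the WT libraries. The groups were well apart, and its log2 change of 0.84 ± 0.17 had the smallest unadjusted p of the 9 lists (0.00449), with an adjusted p of 0.293 (limma). Rnf125, a ubiquitin ligase that promotes the breakdown of RIG-I, was at 5.38 and 8.79 FPKM against 3.92 and 5.16 FPKM. March5, a ligase of the outer mitochondrial membrane, was at 28.42 and 25.84 FPKM against 35.45 and 32.76 FPKM. The inhibitors thus held genes on either side of the WT level.

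The lists around PKR and ZBP1 are given together. Among 10 genes of eIF2 phosphorylation the median log2 change was -0.16, with 1 above both WT libraries and 3 below both (all genes 19.7% and 31.7%), and -0.01 without KO 2. Eif2ak4 and Eif2ak1, which encode the eIF2 kinases for amino acid shortage and heme shortage, were at 5.54 and 5.03 FPKM in the KO libraries against 6.34 and 6.80 FPKM in the WT libraries, and at 15.45 and 17.41 FPKM against 19.11 and 19.18 FPKM. Eif2b1, a subunit of the exchange factor that phosphorylated eIF2 blocks, was at 15.95 and 10.84 FPKM against 17.82 and 16.80 FPKM. Of 6 genes of cell death downstream of Zbp1, 2 lay above both WT libraries and 1 below both (all genes 19.7% and 31.7%). Their median was 0.05, and 0.15 without KO 1, 0.03 without KO 2, 0.00 without WT 1 and 0.09 without WT 2. Mlkl, which executes necroptosis, was at 5.89 and 8.53 FPKM against 6.24 and 4.28 FPKM, so the groups overlap. Fadd, an adaptor of caspase-8, stood at 4.30 and 5.24 FPKM against 4.13 and 3.68 FPKM. Casp6, a caspase gene, stood at 2.82 and 2.14 FPKM against 3.11 and 3.13 FPKM. For Eif2ak4, Eif2ak1 and Eif2b1 both KO libraries thus lay below both WT libraries, whereas for Zbp1 they lay above. No difference between genes was tested.

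Of 10 genes of endosomal RNA sensing 9 were tested, with a median log2 change of 0.09, 2 above both WT libraries and 2 below both (all genes 19.7% and 31.7%). The median was -0.05 without KO 2 and 0.18 without KO 1. Myd88, the adaptor of most Toll-like receptors, was at 24.34 and 34.09 FPKM in the KO libraries against 20.76 and 19.30 FPKM in the WT libraries (log2 change 0.50 ± 0.20, adjusted p = 0.403, limma). Ticam1, the adaptor of Tlr3, was at 6.75 and 7.51 FPKM against 6.18 and 5.97 FPKM. Hsp90b1, the chaperone of these receptors, was at 154.93 and 135.91 FPKM against 175.05 and 179.93 FPKM. The gene not tested was Sidt1, the paralogue of Sidt2, at 0.61 and 0.35 FPKM against 0.75 and 0.70 FPKM, so its KO libraries lay below its WT libraries where those of Sidt2 lay above.

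Genes that process or bind long double-stranded RNA leaned below the WT level, as most genes tested did. Of 9 tested 0 had a log2 change above 0, against 38.3% of all genes. In 5 of them both KO libraries lay below both WT libraries, against 31.7% of all genes. The median was -0.19, against -0.09 over all genes. The list's median was -0.08 without KO 2 and -0.31 without KO 1. Strbp, which encodes a double-stranded RNA binding protein, was at 10.28 and 5.90 FPKM in the KO libraries against 11.53 and 13.20 FPKM in the WT libraries (log2 change -0.60 ± 0.26, adjusted p = 0.437, limma). Dgcr8, the partner of Drosha in microRNA processing, was at 13.03 and 9.94 FPKM against 13.71 and 14.46 FPKM. Stau2, an RNA transport protein gene, stood at 1.83 and 1.01 FPKM against 2.11 and 2 FPKM. KO 2 was the lower of the KO libraries for each of these 3. When libraries were scaled to B-lineage genes the median of this list was 0.35, below the median of all genes of 0.45.

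Of the interferon genes themselves 10 were looked at, and their transcripts were at or close to 0. Of these 10 genes 7 were listed at 0 in every library, among them 4 of the alpha family. Other genes of that family were not looked at. Ifnb1 was listed at 0 in KO 1, KO 2 and WT 1, and at 0.08 FPKM in WT 2. Ifng was the one interferon gene of the 10 found in all libraries, at 0.83 and 0.77 FPKM in the KO libraries against 0.54 and 0.71 FPKM in the WT libraries. Both KO libraries thus lay above both WT libraries, on 17 and 15 fragments against 11 and 15. It was below the filter and was not tested.

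**Figure D4:**
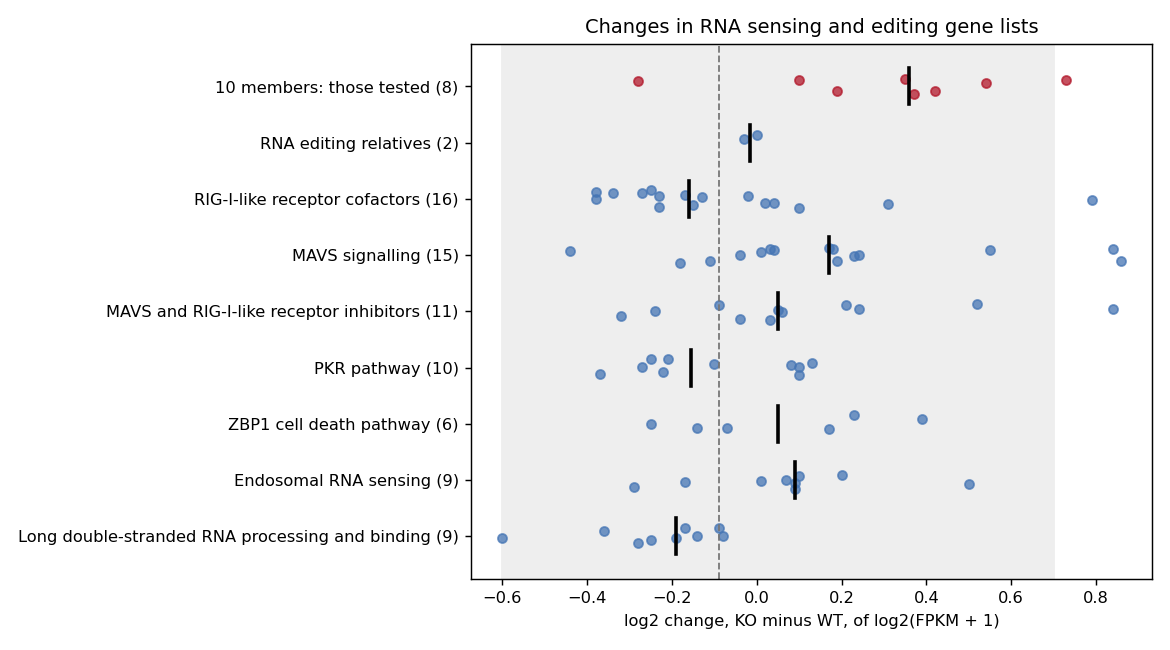
Log2 change (KO minus WT, log2(FPKM + 1) scale) of each tested gene, 1 point per gene, for the 8 sensing and editing genes (red) and for 8 related lists (blue), with the median of each as a black bar. The dashed line marks the median of all 13281 genes tested, -0.09, and the grey band their 5th to 95th percentile; the interferon list is absent because none of its genes passed the filter.

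For Ddx58, Zbp1, Dhx58 and Ifih1, 4 of the interferon-inducible sensors, the genes with the most similar profile were taken as those with the smallest Euclidean distance over the 4 libraries, each profile on the log2(FPKM + 1) scale and centred on its WT mean, among 11110 other tested genes. For Ddx58 they were Litaf, Treml2 and Plxnd1, at distances of 0.0185, 0.0185 and 0.0335. For Zbp1 they were Reck, Cd52 and Fxyd5, at 0.0330, 0.0389 and 0.0446. For Dhx58 they were Eno1, Slc25a45 and Dennd5a, at 0.0110, 0.0155 and 0.0355. For Ifih1 they were Otulinl, Naip6 and Tm6sf1, at 0.0272, 0.0442 and 0.0559. None of the 12 is among the related lists. As one example, Cd52 was at 155.78 and 251.24 FPKM in the KO libraries against 120.86 and 116.08 FPKM in the WT libraries, with the 4 libraries in the same order as for Zbp1. With 4 libraries many genes share a profile, so these names describe the shape of the values and no more.

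**Figure D5:**
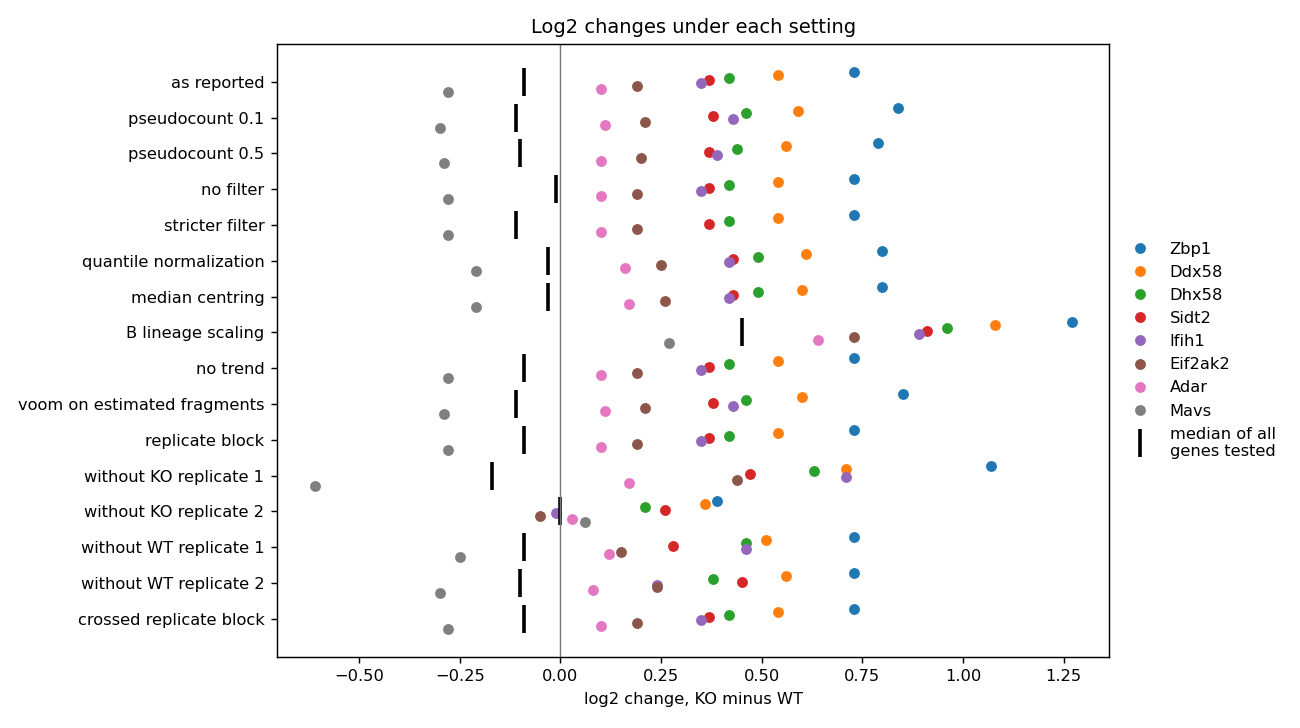
Log2 change (KO minus WT) of the 8 genes tested under each setting of the processing, 1 colour per gene, with the median of all genes tested as a black bar. Zbp1 had the largest value of the 8 under every setting shown, and without KO 2 the values of Ifih1, Eif2ak2, Adar and Mavs drew together between -0.05 and 0.06.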

How the data were processed

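RNA was sequenced from sorted Fr.C+C′ bone marrow B cells, in 2 KO and 2 WT libraries grouped by their titles. The authors deposited 1 value per gene and library in FPKM, per the file headers, rounded to 2 decimals. The build mm9 is named in the submitters' processing notes. The sources used here give no aligner, counting program or strand setting. Gene symbols (55394 of 55573 identifiers matched), union exon lengths and coordinates came from GENCODE M21 (GRCm38), not from the authors' build. With these lengths, 99.5% to 99.7% of the low values checked were whole multiples of 1 fragment within 0.15 fragments, which gave the fragment totals. Fragments printed are estimates and cover counting error only.

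Log2(FPKM + 1) values of genes whose KO or WT mean reached 1 FPKM were tested with limma 3.58.1 (R 4.3.3), trend on, no covariates, two-sided, adjusted by Benjamini-Hochberg. A pseudocount of 1 understates changes of low genes. The fit was tested on simulated data. Members, lists, marker genes and tests were chosen with earlier results of these data known. Genes named are the 10 members, the 3 with the smallest p of each list, and for 4 sensors (Ddx58, Zbp1, Ifih1 and Dhx58) the 3 nearest profiles, leaving out antigen receptor segments and genes named Gm or Rik. Trim25, Sidt1, Adat3, the ADAR relatives and interferon genes below the filter, the marker genes named singly and the overlapping genes are outside this rule and were chosen after their values were seen. Of the marker lists named here, sums are plotted for all 11. Alternatives tried are given in the closing section.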

Additional observations from a re-analysis of the deposited data

How the results depend on the processing

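The 8 genes tested kept their direction and stayed on the same side of the threshold under every alternative run except those named here; Ifih1 could not be fitted under the filter of 5 FPKM, and Adarb1 and Tlr3 entered only with no filter (adjusted p = 0.758 and 0.676). Log2 changes spanned 0.03 to 0.64 for Adar, 0.36 to 1.08 for Ddx58, 0.21 to 0.96 for Dhx58, 0.26 to 0.91 for Sidt2 and 0.39 to 1.27 for Zbp1. Zbp1 passed without KO 1 (adjusted p = 0.0460), as did Ddx60, Nlrx1 and Tbkbp1 (0.0449, 0.0489 and 0.0490); 7.1% of all genes passed in that setting. With 1 library left out, Ifih1 spanned -0.01 to 0.71, Mavs -0.61 to 0.06, Eif2ak2 -0.05 to 0.44 and Adat1 -0.16 to 0.11. Without KO 2 the sign turned for Ifih1 (-0.01), Eif2ak2 (-0.05), Mavs (0.06) and Adat1 (0.11), and without KO 1 for Adat2 (-0.06). Without WT 1 it turned for Adat1 (0.05) and Adat2 (-0.01). Scaling to B-lineage markers raised the median of all genes by 0.54 and turned the sign for Mavs (0.27), Adat1 (0.51), Casp6 (0.29), Ddx1 (0.16), Dgcr8 (0.26), Eif2ak1 (0.33), Eif2ak4 (0.27), Eif2b1 (0.17), Hsp90b1 (0.25), March5 (0.22) and Stau2 (0.18). All of these but Adat1 stayed below that setting's median of 0.45. Adat1 also turned with quantile normalization (0.01) and median centring (0.04), and Adat2 was 0.00 with a pseudocount of 0.1. The count of genes called, 27 as reported, was 15 with a pseudocount of 0.1, 0 with no filter (2257 at an unadjusted p under 0.05), 293 with B-lineage scaling (195 higher, 98 lower), and 9 with voom on estimated fragments. It ranged from 0 (without KO 2) to 948 (without KO 1) when 1 library was left out, and was 14 without WT 1. The cause of these differences was not tested. Leaving out a library leaves 1 in its group, which is then assumed to vary like the other group.

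With the replicate block 68 genes were called, none of them among the 8. The labels do not say that the numbers pair the libraries, so they are not taken to pair them. Deviations of same-numbered libraries correlated at -0.149 over 13281 genes. With 2 libraries a group this value cannot show whether they were paired. A crossed pairing, chosen after seeing the data, gave 213 calls. Depth limits mainly Adarb1 and Tlr3, at 15 to 59 fragments a library.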
